A study of Mus musculus with 4 samples.

Results

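Fibroblast growth factor (FGF) signalling genes were followed through the days when the mouse gonad commits to testis or ovary. The genes are 34 members of the pathway, chosen by symbol: 22 genes of the FGF family, 5 receptor genes and 7 genes that restrain the signal (the Sprouty genes Spry1 to Spry4, Spred1, Spred2 and Dusp6). They are 34 of the 40999 features counted in the files, and each was listed there with at least 1 count in some library. Gonads of wild-type C57BL/6J embryos were collected daily, the first at E11.5 and the last at E14.5. At each day at least 6 male and 6 female gonads were pooled, so XX and XY tissue cannot be separated, and the pool gave 1 library. The genital ridge still carried its mesonephros at E11.5, and the gonad was freed of it from E12.5 on.

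FGFs are mostly secreted ligands that bind tyrosine kinase receptors together with heparan sulfate, and the activated receptor drives the RAS and ERK cascade. That cascade switches on its own brakes, the Sprouty and Spred proteins and the ERK phosphatase DUSP6, whose transcripts therefore serve as common readouts of pathway activity. In the mouse gonad, Fgf9 acts with Sox9 to establish the testis, and loss of Fgf9 or of its receptor Fgfr2 causes XY sex reversal. FGF9 is also known as a signal to fetal germ cells.

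With 1 library per day there is no replicate, so no p-value is given and each comparison is between libraries, not between conditions. Counts were scaled by TMM over the 4 libraries and are given as scaled CPM, the CPM computed with the TMM-scaled library size. A gene was called when its log2 fold change (later over earlier day) was at least 1 in size and its exact Clopper-Pearson 95% counting interval lay on that side of 0. "Rose" and "fell" are used for called genes only, and every interval in brackets covers counting error alone. Total counts ran from 25593453 to 31752562 per library, and 3 counts, the floor that a count of 0 allows, were 0.0758 to 0.159 scaled CPM. Nuclear rRNA took 9.06%, 1.31%, 1.03% and 40.7% of the counts in day order, which left the E14.5 library the shallowest for other genes. The 34 genes together held 28986, 28700, 33099 and 13479 counts at the 4 days. TPM, which is per length, is used only to compare genes within a library.

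Of the 34 genes, 27 passed the filter on low counts. Fgf4, Fgf6, Fgf7, Fgf15, Fgf21, Fgf22 and Fgf23 stayed below 10 counts in every library, with 0 to 8 counts each, and were not tested. Between E11.5 and E12.5, Fgf18, Fgf16, Fgf13 and Spry4 rose (4 of 27, 14.8%, against 8.12% of all genes tested), and Fgf3, Fgf10, Fgf8, Fgf20, Fgf12, Fgf14 and Spry3 fell (7 of 27, 25.9%, against 8.21%). Between E12.5 and E13.5, Fgf17 rose (1 of 27, 3.70%, against 2.54%), and Fgf9, Fgf16 and Fgf20, the members of the FGF9 subfamily, fell (3 of 27, 11.1%, against 1.52%). The call of Fgf20 was lost with total counts, rRNA included or not. With pairwise TMM the filter was rerun on that pair of libraries, and Fgf20 was not tested. Between E13.5 and E14.5, Fgf3, Fgf12 and Fgf14 rose (3 of 27, 11.1%, against 5.77%), and Fgf17 fell (1 of 27, 3.70%, against 1.51%). From E12.5 to E14.5, across pools that both lacked the mesonephros, Fgf3, Fgf12, Fgf14 and Fgfr4 rose (4 of 27, 14.8%, against 7.94%), and Fgf5, Fgf9, Fgf16, Fgf20 and Dusp6 fell (5 of 27, 18.5%, against 2.55%). These comparisons share libraries with each other. Each share rests on 1 to 7 genes, and none was tested against the background. The shares of Fgf17, at 1 gene, stand near it. The median log2 change of the 27 genes was 0.14, −0.13, −0.04 and −0.17 in the 4 comparisons in that order, and that of all 20114 genes tested lay between −0.01 and 0.00.

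**Figure D1:**
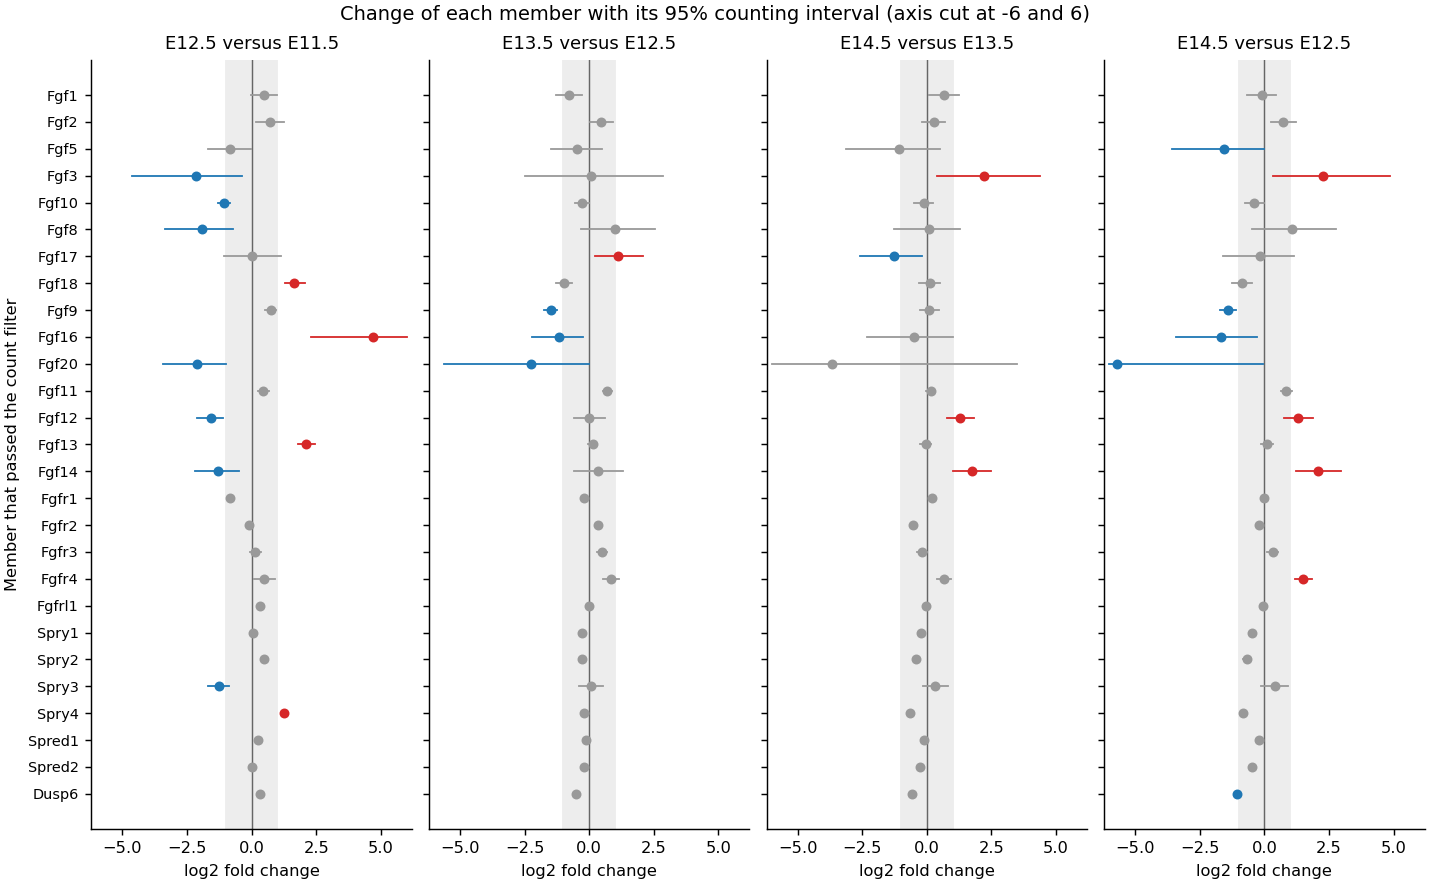
Log2 fold change of the 27 genes that passed the count filter (vertical axis) in the 4 comparisons (panels), as points with 95% counting intervals as lines, cut off at −6 and 6 (Fgf16 and Fgf20 run past these limits). Red genes rose, blue genes fell, grey genes were not called, and the shaded band marks less than 2-fold. Fgf9, Fgf16 and Fgf20 are blue in the E13.5 versus E12.5 panel (Fgf20 was not called with total counts and not tested with pairwise TMM). The receptors other than Fgfr4 stay inside the band throughout.

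All E14.5 values rest on the scaling. With total counts alone in place of TMM, the median gene was 1.06 lower (log2) at E14.5 than at E13.5, and 0 members were called higher and 14 lower, against 301 higher and 11394 lower over all genes. For E14.5 against E12.5 the same scaling moved the median gene to −1.04 and called 1 member higher and 16 lower, against 426 and 10218 over all genes. The ratio of the deposited TPM, which also moves with rRNA, called 0 members higher and 22 and 20 lower in these comparisons. Over all genes it called 219 higher and 17518 lower, and 346 higher and 16134 lower. At the first step it moved the median gene by 0.28 and called 5 members higher and 4 lower, against 2617 and 1361 over all genes where TMM gave 1633 and 1652. Changes at E14.5 are therefore stated relative to the median gene, and ratios between genes within a library, which no scaling can alter, are given where they bear on a result.

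Promoters are shown for a pair of ligands that moved in opposite directions at the first step and for 3 feedback genes, so that their letters can be set beside the values. They are the 250 bases before the RefSeq start in GRCm38.p6, the sequence behind mm10, read 5′ to 3′ on the gene's strand. In these 5 genes the RefSeq start is also the first base of the gene as the deposited files list it. Fgf18 rose and Fgf10 fell between E11.5 and E12.5, and Dusp6, Spry2 and Spred2 are feedback genes with lower values at E14.5 than at E12.5, of which Dusp6 was called. Capitals mark the letters GGAAGT or CCGGAA (short forms of the motif bound by ETS factors, through which ERK acts on its targets) or the TATA box form TATAAA, on either strand.
Fgf18, chr11:33147401-33147650, minus strand: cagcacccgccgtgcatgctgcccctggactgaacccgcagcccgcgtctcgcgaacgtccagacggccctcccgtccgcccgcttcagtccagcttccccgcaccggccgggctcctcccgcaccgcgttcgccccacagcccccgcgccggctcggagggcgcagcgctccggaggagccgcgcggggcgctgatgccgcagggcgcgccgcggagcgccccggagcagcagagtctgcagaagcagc
Fgf10, chr13:118714449-118714698, plus strand: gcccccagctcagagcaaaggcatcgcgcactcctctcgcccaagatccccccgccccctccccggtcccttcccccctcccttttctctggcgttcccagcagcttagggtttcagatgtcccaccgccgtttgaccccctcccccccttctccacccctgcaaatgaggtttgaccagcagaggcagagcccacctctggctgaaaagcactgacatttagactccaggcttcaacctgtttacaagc
Dusp6, chr10:99262981-99263230, plus strand: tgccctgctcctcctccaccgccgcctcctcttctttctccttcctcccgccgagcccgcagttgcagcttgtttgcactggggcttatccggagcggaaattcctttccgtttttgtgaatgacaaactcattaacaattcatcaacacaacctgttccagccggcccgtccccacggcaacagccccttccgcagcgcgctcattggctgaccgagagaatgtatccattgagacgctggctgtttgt
Spry2, chr14:105896820-105897069, minus strand: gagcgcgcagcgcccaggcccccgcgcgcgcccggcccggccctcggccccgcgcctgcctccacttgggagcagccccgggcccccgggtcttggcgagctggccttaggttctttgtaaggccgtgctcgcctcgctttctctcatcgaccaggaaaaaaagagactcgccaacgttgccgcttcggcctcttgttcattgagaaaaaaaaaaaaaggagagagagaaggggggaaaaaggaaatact
Spred2, chr11:19924192-19924441, plus strand: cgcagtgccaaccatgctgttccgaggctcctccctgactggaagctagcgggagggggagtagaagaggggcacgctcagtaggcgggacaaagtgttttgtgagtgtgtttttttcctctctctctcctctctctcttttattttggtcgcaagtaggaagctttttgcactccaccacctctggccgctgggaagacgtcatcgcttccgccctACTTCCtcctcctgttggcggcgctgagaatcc

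The Spred2 promoter holds 1 match, to GGAAGT read on the opposite strand, and the other 4 hold none of the 3 motifs. RefSeq promoters were at hand for 25 of the 34 genes, 32 promoters in all. CCGGAA was present in 4 of these 32, in Fgf5, Fgf12, Fgfr4 and Fgfrl1, against 12.0% of all 32851 promoters of that length. GGAAGT was present in 3, in Fgf13, Fgfrl1 and Spred2, against 19.7%, and TATAAA in 1, in Fgf21, against 12.4%. The 2 ETS forms can overlap. GC content was 77.2% for Fgf18, 61.2% for Fgf10, 56.4% for Dusp6, 62.4% for Spry2 and 56.0% for Spred2.

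The FGF9 subfamily, Fgf9, Fgf16 and Fgf20, encodes secreted ligands that signal over short distances to neighbouring cells. Fgf9 (mm10 chr14:58071037-58112720, plus strand) had 290, 443, 198 and 101 counts from E11.5 to E14.5. In scaled CPM this was 8.46, 14.1, 5.003 and 5.36, so the level was highest at E12.5 and close at the last 2 days. E12.5 against E11.5 gave a log2 difference of 0.74 (0.52 to 0.96), under 2-fold and not called, though the ratio of TPM called it. Fgf9 then fell 2.82-fold by E13.5, a log2 change of −1.50 (−1.75 to −1.25), an interval that lies wholly past 2-fold. Between E13.5 and E14.5 the log2 difference was 0.10 (−0.26 to 0.45).

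Sertoli cells are a known source of Fgf9. The summed level of 6 Sertoli markers (Sox9, Amh, Dhh, Ptgds, Cst9 and Aard) was 92.2, 681, 594 and 614 scaled CPM from E11.5 to E14.5. From E12.5 to E13.5, 0 of the 6 were called by the fold and interval rule, and their sum differed by −0.20 (log2) while Fgf9 differed by −1.50. Among them Sox9, the transcription factor of the testis pathway, had 80.6, 136, 90.6 and 79.1 scaled CPM at the 4 days. In pooled tissue, fewer cells of a type and less RNA per cell cannot be told apart.

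Fgf20 (mm10 chr8:40279166-40286953, minus strand), a close relative of Fgf9, ran the opposite way at the first step. It had 38, 8, 2 and 0 counts from E11.5 to E14.5. Fgf20 fell 4.30-fold between E11.5 and E12.5, a log2 change of −2.10 (−3.43 to −0.999). The next step, −2.26 (−5.61 to −0.01), rests on 8 against 2 counts, its interval just excludes 0, and the call was lost with total counts, rRNA included or not. With pairwise TMM the filter was rerun on that pair of libraries, and Fgf20, below its minimum total of 15, was not tested. Taking the floor of 3 counts for E14.5 and the 8 counts at E12.5 as exact, Fgf20 was at least 1.6-fold lower at E14.5. The counting interval of E14.5 against E12.5 has no lower end and reached up to −0.03 (log2). Counting error alone therefore allows a smaller fall. That call was dropped by the same rerun of the filter with pairwise TMM. Within a library and per length, Fgf20 was 0.442 of the Fgf9 level at E11.5 (0.306 to 0.621), 0.0609 at E12.5 (0.0261 to 0.121) and 0.0341 at E13.5 (0.00410 to 0.1247).

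Fgf16 (mm10 chrX:105764477-105776532, plus strand) was all but absent at first, with 1 count at E11.5 and then 27, 15 and 5 counts. The ratio of E12.5 to E11.5 was 26.2, a log2 change of 4.71 (2.28 to 10.24), whose width comes from that single count. It then fell by 1.18 on the log2 scale to E13.5 (−2.20 to −0.22), a call lost with an interval wholly past 2-fold or with edgeR's exact test at a preset coefficient of variation of 0.1. Fgf16 was thus highest on the same day as Fgf9, at 0.861 scaled CPM against 14.1. The subfamily sum was 9.60, 15.2, 5.43 and 5.63 scaled CPM at the 4 days.

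**Figure D2:**
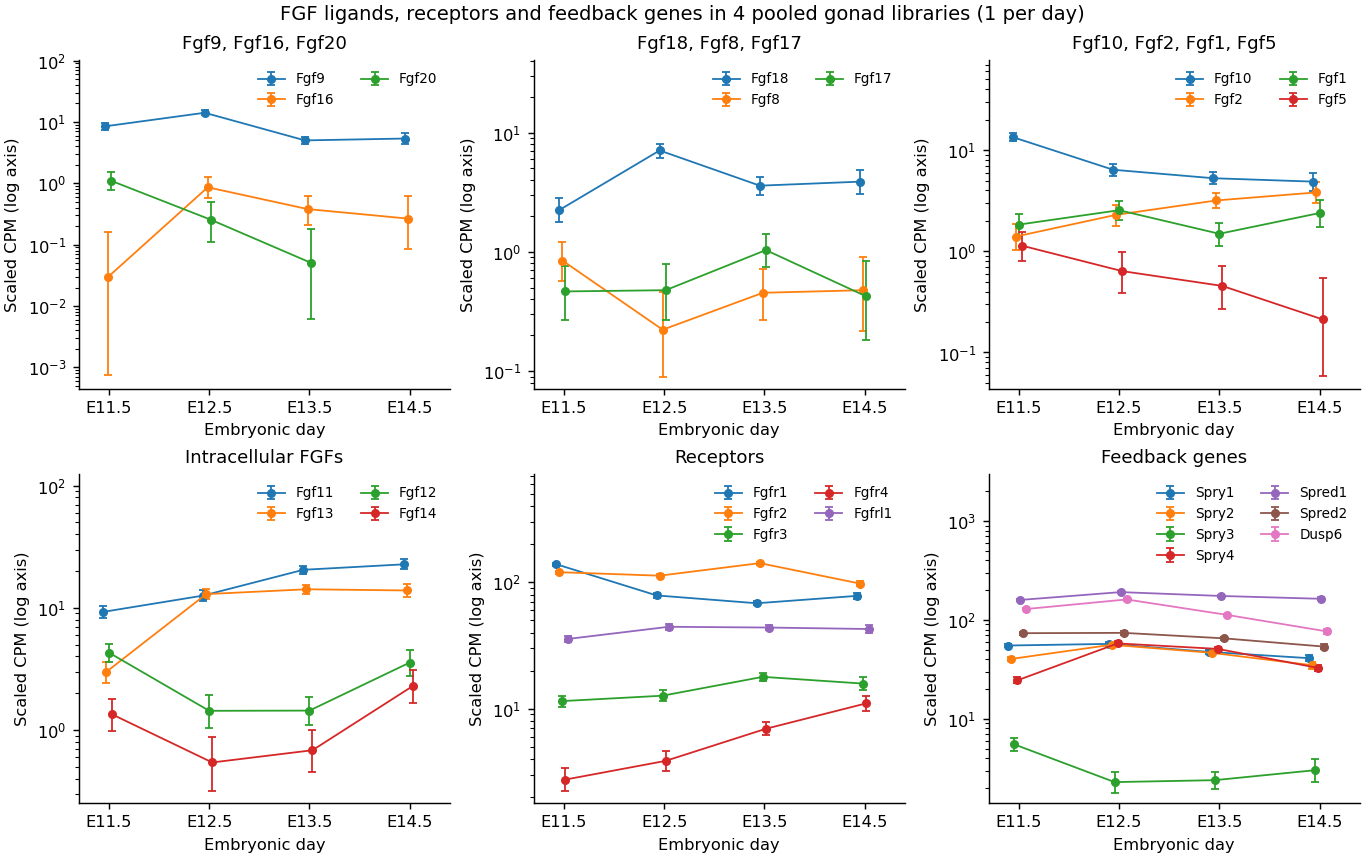
Scaled CPM (log vertical axis) of 26 of the 27 genes that passed the filter (Fgf3 is left out) against embryonic day, 1 library per day, with exact Poisson 95% intervals as bars. Fgf9 and Fgf18 peak at E12.5 at 14.1 and 7.08, Fgf20 runs from 1.11 at E11.5 down to 0 counts at E14.5 (not drawn on the log axis), Fgfr4 is higher at each later day, and Dusp6 runs from 161 at E12.5 to 76.5 at E14.5.

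Fgf18, Fgf8 and Fgf17 form the FGF8 subfamily of secreted ligands, with roles in patterning and skeletal growth. Fgf18 (mm10 chr11:33116970-33147400, minus strand) had 77, 222, 142 and 73 counts from E11.5 to E14.5. Its scaled CPM was 2.25, 7.08, 3.59 and 3.88, and E12.5 stood above the other 3 days. Fgf18 rose 3.14-fold between E11.5 and E12.5, a log2 change of 1.65 (1.27 to 2.05). The decline to E13.5 was 1.97-fold, a log2 difference of −0.98 (−1.29 to −0.67), and missed the 2-fold threshold by little.

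Fgf8, a ligand of limb and organ outgrowth, was sparse, with 29, 7, 18 and 9 counts at the 4 days. It fell by 1.91 on the log2 scale between E11.5 and E12.5 (−3.36 to −0.70). Fgf17, the third member, had 16, 15, 41 and 8 counts. It rose by 1.11 (0.23 to 2.08) to E13.5 and fell by 1.28 (−2.59 to −0.17) to E14.5, and both changes rest on the 41 counts of the E13.5 library. Since Fgf18 made up most of the subfamily, its sum was 3.56, 7.78, 5.08 and 4.78 scaled CPM.

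Fgf3, Fgf7, Fgf10 and Fgf22 form the FGF7 subfamily, ligands that act between mesenchyme and epithelium through the FGFR2b isoform. Fgf10 (mm10 chr13:118714699-118792573, plus strand), made by mesenchyme of many organ buds, was the main one. It had 461, 201, 209 and 92 counts from E11.5 to E14.5. In scaled CPM that was 13.45, 6.41, 5.28 and 4.89, with E11.5 standing clear of the later days. Fgf10 fell 2.10-fold between E11.5 and E12.5, a log2 change of −1.07 (−1.32 to −0.83), and this call was lost with total counts or with the ratio of TPM. Fgf3 had 15, 3, 4 and 9 counts at the 4 days. Its called changes, −2.15 (−4.62 to −0.37) at the first step and 2.19 (0.40 to 4.39) at the last, rest on 3 and 4 counts in the lower library. Its calls at E14.5, against E13.5 and against E12.5, were lost with total counts or the ratio of TPM. With pairwise TMM the rerun filter left Fgf3 untested in both.

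The first step also removed the mesonephros, so day and dissection cannot be told apart for any E12.5 versus E11.5 change. Nephric markers (Pax2, Pax8, Lhx1, Gata3, Wnt9b and Six2) summed to 144 scaled CPM at E11.5 and to 23.8, 21.3 and 21.7 on the later days. Of these 6 markers 4 fell at that step, with Pax2 at 44.7 and then 1.91 scaled CPM. Of the 5 neuron and glia markers 4 fell, the sum going from 32.4 to 15.5 scaled CPM. All 4 macrophage markers found in the files fell, the sum going from 40.5 to 15.4 scaled CPM. The summed mesenchyme markers were 851 and 681 scaled CPM, with 1 of 4 falling. Within that sum Nr2f2 stood at 545 and 297, while Pdgfra (231 and 298) and Tcf21 (56.2 and 83.1) were higher at E12.5. Lhx1 (6.10 and 9.53) and Sox10 (5.87 and 11.6) were also higher at E12.5, against the sums of their lists. The list sums, but not every marker, moved in the same direction as Fgf10, Fgf8, Fgf3 and Fgf20. Their part in those changes was not tested.

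Between genes within a library, Fgf9 stood at 0.578 of the Fgf10 level per length at E11.5 (0.497 to 0.671) and at 2.03 times at E12.5 (1.71 to 2.40). The ratio was 0.870 at E13.5 (0.713 to 1.06) and 1.01 at E14.5 (0.753 to 1.35), where the intervals include 1. Fgf18 stood at 0.448 of Fgf10 at E11.5 (0.347 to 0.571) and at 2.96 times at E12.5 (2.44 to 3.60). The largest share of the summed TPM of 18 secreted ligands was that of Fgf10 at E11.5, 30.1%, and that of Fgf18 at E12.5, 35.2%. At E13.5 and E14.5 it was that of Fgf2, at 30.3% and 32.8%. Per length Fgf2 was 1.19 of Fgf18 at E13.5 (0.927 to 1.52) and 1.32 at E14.5 (0.940 to 1.85), so counting error alone spans equal levels on both days.

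Fgf1 and Fgf2, the FGF1 subfamily, are ligands that lack a classical secretion signal and are stored with heparan sulfate. Fgf2 had 48, 72, 126 and 72 counts from E11.5 to E14.5. Its scaled CPM was 1.40, 2.29, 3.18 and 3.82, higher at each later day, but no single comparison passed 2-fold and E14.5 differed from E12.5 by 0.74 (0.25 to 1.23) on the log2 scale. Fgf1 had 63, 80, 59 and 45 counts, and its 4 log2 differences lay between −0.77 and 0.68 with no call. Fgf5, a ligand best known for ending hair growth, had 39, 20, 18 and 4 counts and fell by 1.56 (−3.59 to −0.01) from E12.5 to E14.5, a call lost with pairwise TMM. Its relatives Fgf4 and Fgf6 and the hormone-like Fgf15, Fgf21 and Fgf23 had at most 5 counts in a library, which the depth does not separate from each other.

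**Figure D3:**
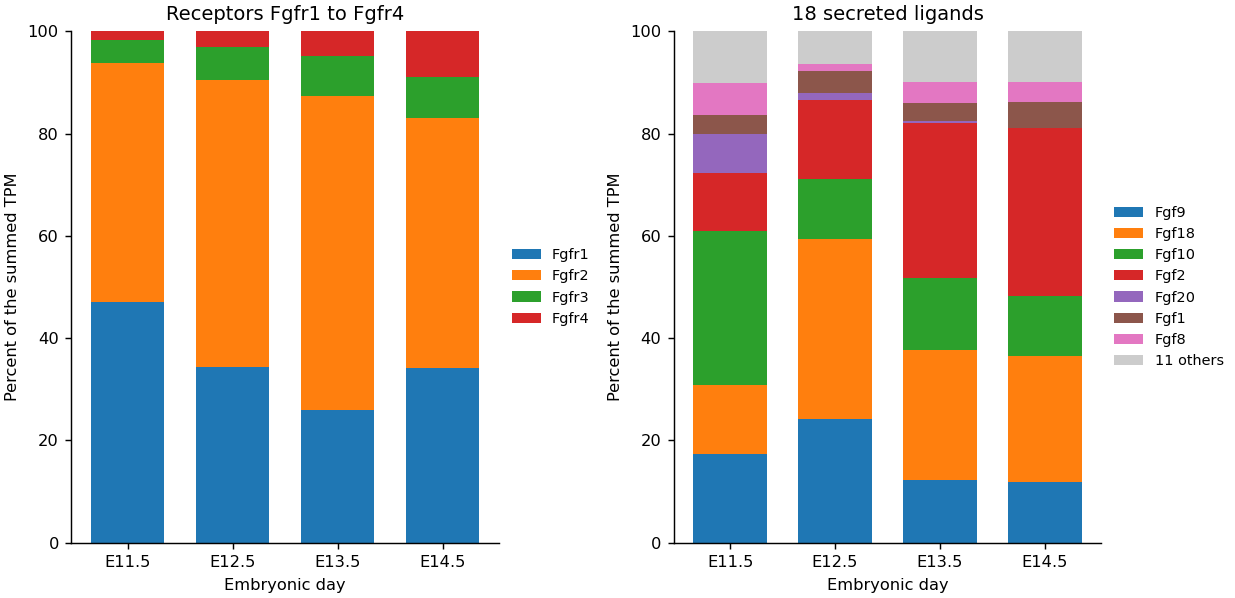
Share of the summed TPM (percent, stacked bars from 0 to 100) in each library, by embryonic day: left, Fgfr1 to Fgfr4; right, the 18 secreted ligands with 7 shown by name and 11 together in grey. Fgfr1 and Fgfr2 hold 47.1% and 46.7% at E11.5 but 25.9% and 61.5% at E13.5, Fgfr4 goes from 1.73% to 8.93%, and the share of Fgf10 goes from 30.1% to 11.7%.

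Fgf11, Fgf12, Fgf13 and Fgf14 encode intracellular FGFs, which are not secreted and are known for binding voltage-gated sodium channels in excitable cells. By TPM, Fgf11 and Fgf13 led the 22 FGF genes at E13.5, with 10.2 and 7.65, and at E14.5, with 3.69 and 2.44. Fgf13 (mm10 chrX:59062139-59585676, minus strand) had 102, 406, 561 and 261 counts from E11.5 to E14.5. In scaled CPM it was 2.98 and then 12.9, 14.2 and 13.9, a single step after E11.5. Fgf13 rose 4.34-fold at that step, a log2 change of 2.12 (1.80 to 2.45). At the same step 4 of 5 neuron and glia markers fell. The remaining marker, Sox10, had 5.87 and then 11.6 scaled CPM, a log2 difference of 0.98 (0.73 to 1.24) that was not called. The part of these cells in the Fgf13 rise was not tested. Fgf11 had 317, 395, 810 and 427 counts, or 9.25, 12.6, 20.5 and 22.7 scaled CPM. Each later day was higher for Fgf11, but no comparison reached 2-fold, E14.5 against E12.5 giving a log2 difference of 0.85.

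Fgf12 and Fgf14 had the reverse course, with both end libraries high. Fgf12 had 147, 45, 57 and 67 counts, or 4.29, 1.43, 1.44 and 3.56 scaled CPM. It fell by 1.58 (−2.10 to −1.09) into E12.5 and rose by 1.303 (0.77 to 1.84) into E14.5. Fgf14 had 46, 17, 27 and 43 counts, or 1.34, 0.542, 0.682 and 2.28 scaled CPM. It fell by 1.303 (−2.20 to −0.48) and rose by 1.74 (1.02 to 2.49) at the same steps. With total counts or the ratio of TPM neither gene rose at E14.5 against E13.5, and the TPM ratio of Fgf12 was −0.31 on the log2 scale.

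The 2 end libraries were also the ones with the most rRNA, at 9.06% and 40.7%. Fgf14 and Fgf12 are the longest of the 34 genes on the chromosome, spanning 700139 and 594661 bases with 11764 and 7677 exonic bases. Fgf13, which spans 523538 bases, had a log2 difference of −0.03 (−0.25 to 0.18) into E14.5. Neuron and glia markers summed to 12.3 scaled CPM at E13.5 and 11.7 at E14.5, with 0 of 5 called by the fold and interval rule. Whether the rRNA content, the gene span or the neuron and glia content has a part in the E14.5 rises was not tested.

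The receptors Fgfr1 to Fgfr4 are tyrosine kinases, and Fgfrl1 is a relative without the kinase domain. Fgfr1 (mm10 chr8:25513659-25575718, plus strand) had 4757, 2469, 2700 and 1470 counts from E11.5 to E14.5, or 139, 78.7, 68.2 and 78.1 scaled CPM. E11.5 stood above the other days, with a log2 difference of −0.82 (−0.89 to −0.75) into E12.5 that stayed under 2-fold. Fgfr2 (mm10 chr7:130162451-130266808, minus strand) had 4119, 3539, 5611 and 1838 counts, or 120, 113, 142 and 97.6 scaled CPM. Its largest step was from E13.5 to E14.5, −0.54 (−0.62 to −0.46), again not called. Neither gene was called in any of the 4 comparisons.

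The balance of the 2 receptors within a library differed between days. Per length, Fgfr2 was 0.990 of Fgfr1 at E11.5 (0.949 to 1.03), where the interval includes 1. The ratio was 1.64 at E12.5 (1.56 to 1.73), 2.38 at E13.5 (2.27 to 2.49) and 1.43 at E14.5 (1.33 to 1.53). No interval overlapped that of the day before, although these are counting intervals of single libraries. In the deposited annotation 746 bases of Fgfr1 are shared with LOC102639800 on the same strand, a feature with 0 counts in all libraries. How reads in such shared bases were assigned is not given. Reads there may be missing from the Fgfr1 count, which would affect these ratios per length.

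Fgfr4 (mm10 chr13:55152818-55168759, plus strand), known from liver and muscle, was the only receptor called in the 4 comparisons. It had 94, 121, 274 and 207 counts, or 2.74, 3.86, 6.92 and 10.995 scaled CPM. Each step was under 2-fold, at 0.49, 0.84 and 0.67 on the log2 scale, but together E12.5 to E14.5 gave a rise of 1.51 (1.18 to 1.85), a call lost with total counts or the ratio of TPM. Fgfr3 had 393, 397, 706 and 297 counts, or 11.47, 12.7, 17.8 and 15.8 scaled CPM, with no call. Fgfrl1 had 1221, 1394, 1734 and 803 counts and, at 35.6 and then 44.4, 43.8 and 42.7 scaled CPM, stayed within 0.06 (log2) from E12.5 to E14.5. The 5 receptor genes summed to 309, 252, 279 and 245 scaled CPM.

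The feedback genes were more abundant than the secreted ligands, with a summed TPM of 181 against 15.1 at E11.5 and of 275 against 22.2 at E12.5. Spry3 was the exception, below 2 TPM in every library. Dusp6 (mm10 chr10:99263231-99267489, plus strand), the phosphatase that removes the activating phosphates of ERK, had 4419, 5053, 4452 and 1440 counts from E11.5 to E14.5. Its scaled CPM was 129, 161, 112 and 76.5, highest at E12.5 and lowest at E14.5. Dusp6 fell by 1.07 from E12.5 to E14.5 (−1.16 to −0.99), in steps of −0.52 (−0.58 to −0.46) and −0.56 (−0.64 to −0.47) that were not called one by one. Per length it was 2.66 times Spry1 at E12.5 (2.52 to 2.80) and 1.76 times at E14.5 (1.61 to 1.92), intervals that do not overlap. An antisense feature, LOC102638331, shares 306 bases with Dusp6 and had 2 to 9 counts per library, and without a stated strand setting reads of the shared bases cannot be told apart.

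Sprouty proteins interrupt receptor signalling upstream of or at RAF. Spry4 had 840, 1816, 2016 and 616 counts, or 24.5, 57.9, 50.9 and 32.7 scaled CPM. Spry4 rose 2.36-fold between E11.5 and E12.5, a log2 change of 1.24 (1.12 to 1.36), and was the only Sprouty gene to rise in the 4 comparisons. Per length Spry4 went from 0.256 of Spry1 at E11.5 (0.235 to 0.278) to 0.582 at E12.5 (0.544 to 0.621), a shift that does not depend on the scaling. From E12.5 to E14.5 its log2 difference was −0.82, under 2-fold.

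Spry2 had 1383, 1760, 1840 and 656 counts, or 40.4, 56.1, 46.5 and 34.8 scaled CPM, and was not called. Spry1 had 1889, 1796, 1880 and 773 counts, or 55.1, 57.2, 47.5 and 41.1 scaled CPM, a narrow range. Spry3, the sparse member, had 189, 72, 95 and 57 counts and fell by 1.26 (−1.68 to −0.87) into E12.5. The files place Spry3 on an unlocalised scaffold of the X chromosome. Spred1 and Spred2, related inhibitors of RAF activation, had 5457, 5995, 6913 and 3078 counts and 2517, 2322, 2578 and 1012 counts. Their log2 differences lay between −0.46 and 0.26 in the 4 comparisons.

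In all, from E12.5 to E14.5 the log2 difference was below 0 for 6 of the 7 feedback genes, with 1 called and a median of −0.48, where that of all genes tested was within 0.01 of 0. Over all genes tested 2.55% were called down and 7.94% up there. Values below 0 were not particular to the feedback genes. Between those days 5 of 5 endothelial markers (median −0.57) and 14 of 18 adaptor, RAS, RAF, MEK and ERK genes (median −0.15) were below 0. All 4 mesenchyme markers were above 0 (median 0.385). From E11.5 to E12.5 the difference was above 0 for 6 of 7, with 1 called up, 1 called down and a median of 0.26. The shares over all genes tested were 8.12% up and 8.21% down. Their sum was 487, 600, 500 and 405 scaled CPM at the 4 days, and the sum from E12.5 to E14.5 differed by −0.57 (log2). These are the same libraries as the ligand results, so the 2 courses are not separate evidence.

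**Figure D4:**
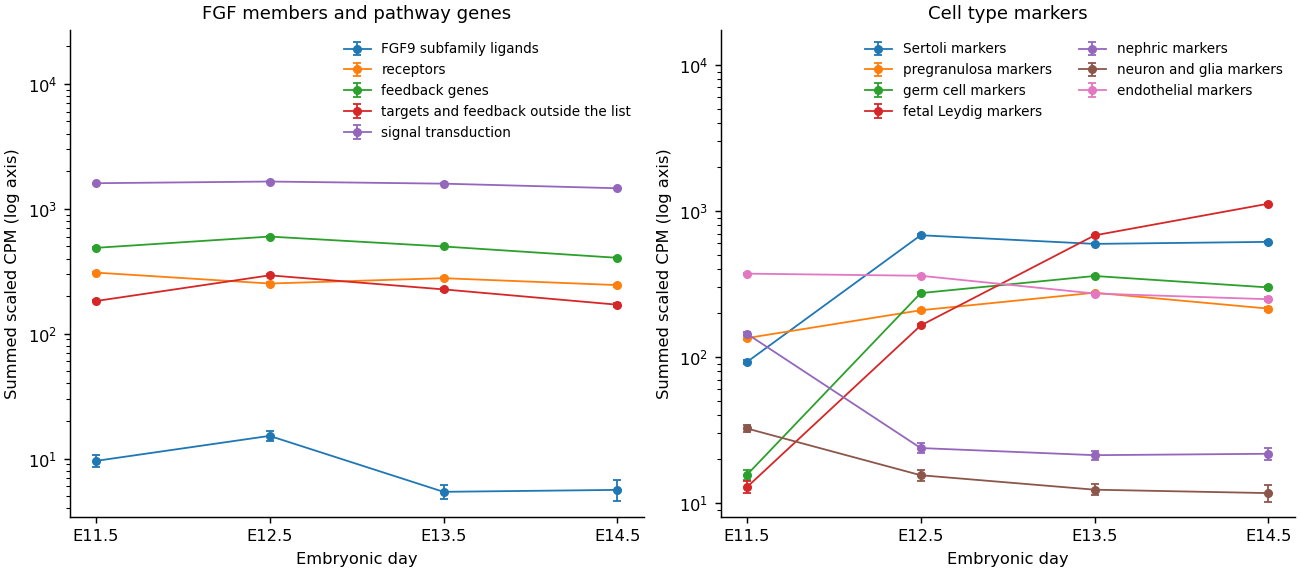
Summed scaled CPM (log vertical axis) against embryonic day for FGF gene groups and pathway lists (left) and cell type marker lists (right), 1 library per day, with exact Poisson 95% intervals as bars (mostly smaller than the points). The FGF9 subfamily, the feedback genes and the targets outside the list are highest at E12.5, at 15.2, 600 and 294; nephric markers go from 144 at E11.5 to 23.8 at E12.5, and fetal Leydig markers from 12.8 at E11.5 to 1121 at E14.5.

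Known targets of the pathway outside the 34 genes were examined by the same rule. Of 7 transcription factors and inhibitors (Etv1, Etv4, Etv5, Dusp4, Dusp5, Il17rd and Spred3), Etv5 and Dusp4 rose into E12.5 and Spred3 fell. Over all genes tested 8.12% rose and 8.21% fell at that step. Etv5, an ETS factor induced by FGF, had 47.3, 102, 63.8 and 47.9 scaled CPM, a rise of 1.11 (1.03 to 1.2004) and, from E12.5 to E14.5, a fall of 1.10 (−1.204 to −0.99). Dusp4, another phosphatase of ERK, had 21.9, 48.8, 26.5 and 14.98 scaled CPM, and fell by 1.70 (−1.89 to −1.52) from E12.5 to E14.5. Etv4 had 14.47, 13.55, 6.49 and 4.36 scaled CPM and fell by 1.06 (−1.29 to −0.83) into E13.5. Dusp5 was highest a day later, at 35.9 scaled CPM at E13.5, and fell by 1.296 (−1.49 to −1.11) into E14.5. From E12.5 to E14.5, 3 of these 7 fell and 0 rose by the fold and interval rule, with a median of −0.82. Over all genes tested 2.55% fell and 7.94% rose between those days. Other receptor tyrosine kinases use the same targets, and no value here separates the ligands.

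No gene of the cascade between receptor and target was called. Of 19 adaptor, RAS, RAF, MEK and ERK genes, 18 were in the files and tested, and 0 of 18 were called in any of the 4 comparisons by the fold and interval rule. Their sum was 1603, 1654, 1590 and 1461 scaled CPM.

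Genes that shape how ligands reach receptors were examined too. Of 16 coreceptor, binding protein and proteoglycan genes, 14 were tested, and Gpc4 and Sdc4 rose while Flrt2, Flrt3, Gpc2 and Gpc6 fell between E11.5 and E12.5, where 8 of the 14 were not called (over all genes tested 8.12% rose and 8.21% fell). Flrt3, a membrane protein that binds FGF receptors, had 89.5 scaled CPM at E11.5 and then 18.1, 18.04 and 17.5, a fall of 2.30 (−2.43 to −2.17). The heparan sulfate chains that FGFs need are built or edited by the products of 14 further genes, all tested, of which 12 were not called at that step. Hs3st3a1, a sulfotransferase, had 46.6, 30.4, 36.1 and 154 scaled CPM and rose by 2.10 (2.0035 to 2.19) into E14.5. Hs6st2 and Hs3st1 rose into E12.5, by 1.02 each, and Hs3st1 rose again into E13.5 by 1.15. Kl, a coreceptor for the hormone-like FGF23, had 30, 19, 13 and 51 counts and rose by 3.03 (2.14 to 4.05) into E14.5. Klb, the related coreceptor in the list, had 3, 2, 1 and 1 counts and was not tested. Fgf15, Fgf21 and Fgf23 had 0 or 1 count at E14.5.

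Cell type markers for the later steps were as follows. Pregranulosa markers summed to 135, 209, 275 and 214 scaled CPM, germ cell markers to 15.6, 274, 358 and 299, and fetal Leydig markers to 12.8, 164, 680 and 1121. All 5 Leydig markers rose into E13.5, the step at which Fgf9 fell, and 0 of 6 germ cell and 0 of 6 pregranulosa markers were called there by the fold and interval rule. Endothelial markers summed to 372, 360, 272 and 248 scaled CPM, with 0 of 5 called in the 4 comparisons by that rule. Erythroid markers summed to 60.3, 61.3, 106 and 82.9 scaled CPM. The part of these cell types in the changes of the FGF genes was not tested.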

How the data were processed

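Pooled XX and XY gonads at 4 days gave 1 library each. Ribosomal RNA was digested with RNase H, stranded libraries with UMIs were built, and the authors processed the reads with the BioRad toolkit (cutAdapt, STAR, UMI-tools, featureCounts, mm10). Versions, the annotation release and the strand setting of counting are not given in the sources used here. The deposited counts per gene are deduplicated reads. The TPM values were deposited by the authors too, and were recomputed from counts and lengths to within 2.9e-11. The deposited RPKM values were not used.

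The counts were scaled by TMM over the 4 libraries and filtered with filterByExpr (minimum count 10, minimum total 15) in edgeR 4.0.16 and R 4.3.3, with a prior count of 0.125. The test per gene was the exact Clopper-Pearson 95% interval of the ratio of counts, without a p-value, in place of the FDR of the study, since there is no replicate. The interval rule was tried on simulated counts that carried counting error alone, so spread between pools was not part of that check. Scaled CPM carry exact Poisson intervals, which cover counting error only. Total counts of 25593453 to 31752562 put 3 counts at 0.0758 to 0.159 scaled CPM. Python 3.11.15, pandas 2.3.3, numpy 2.4.6 and matplotlib 3.10.9 were used for joins and figures. Every one of the 34 members is accounted for, with counts for those reaching 10 in any library, and other pathway genes are named if called, or as list members. The members and lists were chosen with earlier results of these data known. A single marker gene is not reported here and was left out of its list. Alternatives were DESeq2 1.42.0 size factors, pairwise TMM, total counts of all genes or of those left once rRNA and the 10 most abundant are dropped, other filters, a prior count of 2, stricter intervals, edgeR's exact test with a preset coefficient of variation of 0.1 or 0.4, the ratio of TPM with a pseudocount of 0.01, and, chosen after seeing the data, scaling without the E14.5 library. Pairwise TMM also reran the filter on the pair of libraries compared.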

Additional observations from a re-analysis of the deposited data

How the results depend on the processing

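For the 3 daily steps in order and then E14.5 against E12.5, 11, 4, 4 and 9 members were called. Asking for at least 10 counts in both libraries left 7, 3, 2 and 5, since Fgf3, Fgf8, Fgf16, Fgf17, Fgf20 and Fgf5 drop below that minimum; over all genes it left 1105 up and 1127 down, 313 and 177, 920 and 148, and 1159 and 273. Asking for an interval wholly past 2-fold left 5, 1, 1 and 3, and over all genes 940 up and 820 down, 118 and 58, 557 and 48, and 788 and 124. edgeR's exact test with a preset coefficient of variation of 0.1 called 10, 1, 2 and 5 members (over all genes 1409 up and 1384 down, 247 and 119, 820 and 120, and 1214 and 290), and with 0.4 it called 0 in all 4 comparisons (and 135 up and 148 down, 1 and 0, 31 and 0, and 68 and 3 over all genes). These libraries hold no estimate of the spread between pools. Total counts called 14 members, all lower, at E14.5 against E13.5 and 17 against E12.5, 16 of them lower, with the median gene moved by −1.06 and −1.04. The ratio of the deposited TPM called 22 and 20, all lower, with the median gene moved by −1.61 and −1.48. Over all genes that ratio called 219 up and 17518 down, and 346 and 16134. It reversed Fgf12 to −0.31 and −0.17. The share of a library taken by rRNA, 40.7% at E14.5, enters both total counts and the TPM ratio. Pairwise TMM (11, 3, 3 and 6), DESeq2 size factors (11, 4, 4 and 9), no filter, a prior count of 2, and totals without rRNA and the most abundant genes kept the counts within 1.5 times, as did scaling without the E14.5 library for the first 2 steps, the only ones it can be run on. Depth limits the genes under 10 counts most. No paired analysis was possible because each day has 1 library.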
